A study of Mus musculus with 2 samples.

Results

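Respiratory complex I, the NADH:ubiquinone oxidoreductase of the inner mitochondrial membrane, was followed here through its nuclear-encoded genes in infarcted mouse heart. All gene symbols beginning with Nduf in the deposited table of mouse transcripts were taken and their read counts summed per symbol, which gave 45 genes (58 transcripts) of 24542 symbols. Of these, 36 encode subunits, 7 encode assembly factors with Ndufaf symbols, and Ndufa4 and its paralogue Ndufa4l2 were kept apart. All 45 passed the filter on low counts. Ndufb1, which RefSeq lists as a protein-coding gene on chromosome 12, has no row under that symbol, so the set is not complete.

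The libraries came from total RNA of the remote left ventricle, away from the scar and border zone, of male C57BL/6 mice with a permanently tied proximal left anterior descending coronary artery, 7 days after ligation. NRK-2 KO mice, which lack a nicotinamide riboside kinase that feeds NAD synthesis and is encoded by Nmrk2, were compared with littermate controls. Both genotypes had been infarcted, so no uninjured heart enters the comparison. The labels list 1 sample per genotype, whereas the table has 3 numbered libraries per genotype, named KO 1 to 3 and control 1 to 3 below. No source used here says how the knockout allele was made, how old the mice were or whether each library is a separate mouse. The p-values therefore reflect library-to-library spread alone, some or all of which may be technical.

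Complex I passes electrons from NADH to ubiquinone and pumps protons, and it is the main site at which mitochondrial NADH is turned back into NAD. Its matrix arm holds the N module, where a flavin takes electrons from NADH, and the Q module, where iron-sulfur clusters pass them to ubiquinone. The membrane arm, here divided into a proximal and a distal part, holds the proton pumps, whose core proteins are encoded in mitochondrial DNA and were not analysed here. Supernumerary subunits surround the core, and assembly factors build the enzyme without staying in it. Cardiomyocytes are packed with mitochondria and hold far more of this enzyme than most other cells of the heart.

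Libraries held 26975513 to 33086384 reads in those labelled KO and 22377348 to 22831189 in control. In the library labelled KO 1, Nmrk2 had 808 reads, against its label. Those labelled KO 2 and KO 3 had 9 and 0 reads, and control 1, 2 and 3 had 308, 270 and 118. Every direction given for the knockout therefore rests on a group in which 1 library of 3 kept the targeted transcript. Transcripts of atrial muscle (Sln, Myl4 and Myl7) summed to 468, 7.75 and 2.74 CPM in KO 1, 2 and 3 and to 435, 357 and 2.31 CPM in control 1, 2 and 3, so that 3 libraries held atrial transcripts and 3 were nearly free of them. Another atrial gene, Bmp10, was at 0 reads in all 6 libraries. CPM are read counts scaled by library total and a TMM factor.

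Promoter windows (from 250 bases before to 50 after a start site, RefSeq, build GRCm38.p6, the assembly mm10 is based on) were given for 39 of the 45 genes, and those of the others, such as Ndufa2, Ndufa4l2, Ndufaf6, Ndufb9 and Ndufs1, were not used here. As a description, 4 elements linked to mitochondrial genes were searched on both strands. The YY1 element AAGATGGC was held by 7 of 39 genes (17.9%), against 3.19% of all 27025 symbols with a window. In each of the 7 it lay on the gene's own strand, from 23 to 39 bases after the start site. They are shown because they share both the letters and the place, with the element in capitals.
Ndufa3, chr7:3617384-3617413, plus strand: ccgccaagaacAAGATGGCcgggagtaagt
Ndufa9, chr6:126849097-126849126, minus strand: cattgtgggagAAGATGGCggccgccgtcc
Ndufb8, chr19:44555393-44555422, minus strand: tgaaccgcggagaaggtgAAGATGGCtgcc
Ndufc1, chr3:51408915-51408944, minus strand: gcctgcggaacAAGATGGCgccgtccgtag
Ndufs4, chr13:114388045-114388074, minus strand: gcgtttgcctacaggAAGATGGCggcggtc
Ndufs6, chr13:73328433-73328462, minus strand: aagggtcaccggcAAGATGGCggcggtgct
Ndufs7, chr10:80249462-80249491, plus strand: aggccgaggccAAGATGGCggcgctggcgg

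The element GCGCATGCG of NRF-1, a transcription factor of nuclear genes for mitochondrial proteins, was held by 4 of 39 genes (10.3%), against 1.95% of all symbols with a window. Since its reverse complement overlaps it, a longer palindrome can match on both strands, and each gene is counted once. Both subunits and assembly factors held it, and their windows are shown with the match in capitals.
Ndufa11, chr17:56717691-56717720, plus strand: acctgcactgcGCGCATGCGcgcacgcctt
Ndufa8, chr2:36049329-36049358, minus strand: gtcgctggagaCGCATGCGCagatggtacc
Ndufaf4, chr4:24897959-24897988, plus strand: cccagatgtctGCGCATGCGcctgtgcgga
Ndufaf5, chr2:140170651-140170680, plus strand: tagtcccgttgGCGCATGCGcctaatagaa

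The ETS element CCGGAAG, read by the factor GABP, was held by 5 of 39 genes (12.8%, against 9.93% of all symbols): Ndufaf1, Ndufb6, Ndufb7, Ndufs3 and Ndufs8. The element TCAAGGTCA of the ERR receptors was in 0 of 39 windows and in 0.466% of all. These matches describe letters only.

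Complex I transcripts were less abundant in the libraries labelled KO than in control, with similar fold changes in every module of the enzyme. The 36 subunits summed to 6631, 4049 and 6180 CPM in KO 1, 2 and 3, against 13038, 13274 and 7591 CPM in control 1, 2 and 3. The groups did not overlap, but control 3 lay much nearer to the libraries labelled KO than to the other controls. In all 36 subunits KO 2 was the lowest of the 6 libraries and control 3 the lowest of the controls. Each subunit had a negative fitted log2 fold change (KO over control), from -1.23 to -0.67 with a median of -0.99, beside a median of 0.01 over the 14466 genes tested. A negative value was fitted for 49% of all genes, and one at or below the subunit median for 5.24%. In bulk RNA, fewer cardiomyocytes and less transcript per cardiomyocyte cannot be told apart.

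None of the 45 genes passed edgeR's quasi-likelihood test after Benjamini-Hochberg adjustment (0 rose and 0 fell at an adjusted p under 0.05), while 3.7% of all genes tested did, 1.09% in the lower and 2.61% in the higher direction. At an unadjusted p under 0.05, 43 of the 45 were lower, against 13.5% of all genes. The smallest adjusted p among the 45 was 0.0659 (Ndufa5). In 39 of the 45, all libraries labelled KO lay below all controls, as they did in 14.5% of all genes, and only Ndufa4l2 lay above in all (16.4% of all genes). The exceptions in the lower direction were Ndufv2, Ndufv3, Ndufb7, Ndufa11 and Ndufaf5, in each of which KO 1 lay above control 3. The 45 genes share the same 6 libraries and are not replicates, so these counts of genes do not add up as separate evidence.

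By edgeR the call turned on 1 control library, and on all 6 libraries it also depended on the test used. Without control 3, 43 of the 45 genes fell by edgeR, against 12.9% of all genes, Ndufs5 and Ndufa4l2 being the exceptions. Leaving out any other single library left 0 of 45 past the test. In those fits few genes of any kind fell, 0.0679% without KO 1, 0.0686% without KO 2, 0.0268% without control 1, and 0 without KO 3 or control 2. DESeq2 on all 6 libraries called 40 of the 45 lower (34 of 36 subunits and 5 of 7 assembly factors), against 9.19% of all genes. Ndufa2, Ndufa5, Ndufa13 and Ndufaf4 were the 4 that fell with a filter at a mean of 10 CPM (3.07% of all genes) and by limma on log2(FPKM + 1) (2.32% of all genes). Without KO 1, whose Nmrk2 reads go against its label, the subunit median was -1.13.

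**Figure D1:**
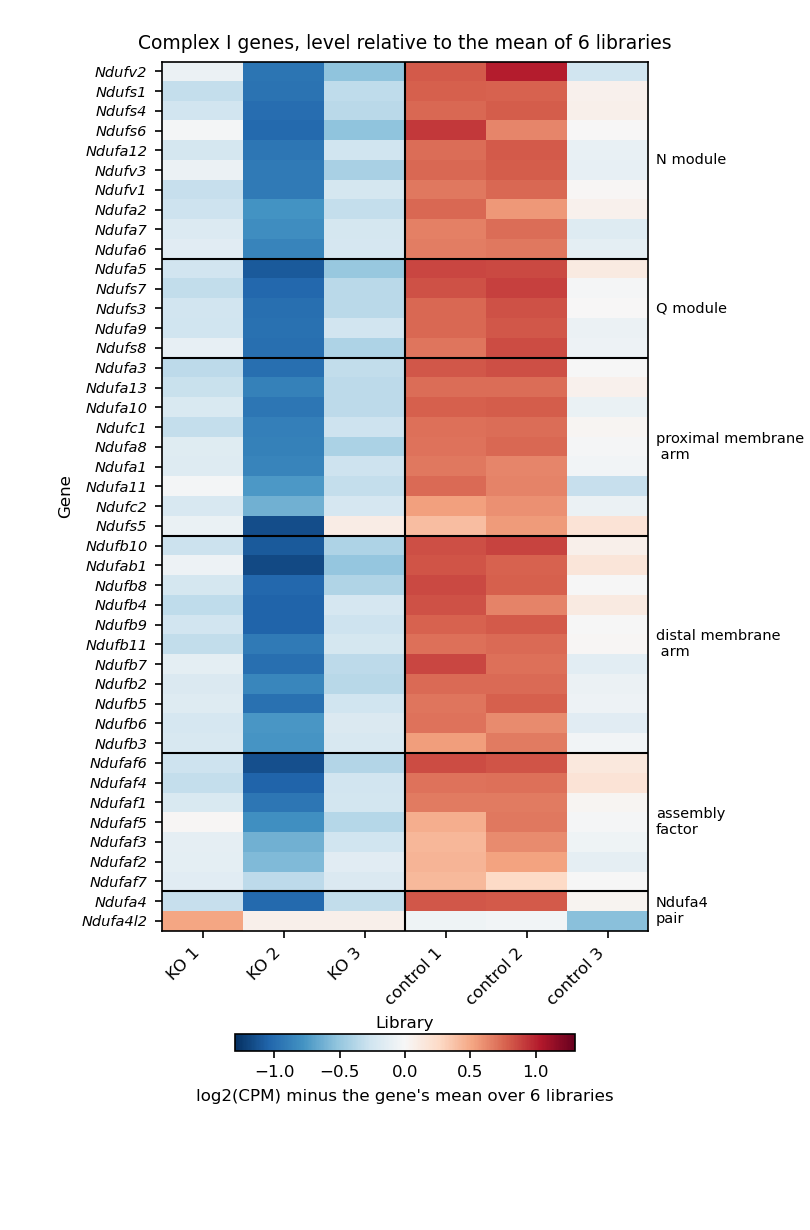
Level of 44 of the 45 complex I genes (rows, grouped by role) in each library (columns, KO left of control) as log2(CPM) minus the gene's mean over the 6 libraries, from blue (low) to red (high). KO 2 is the lowest library for all 36 subunits, control 1 and control 2 are the highest, and control 3 lies between them and the libraries labelled KO in most genes (KO 1 is above it in 5), while Ndufa4l2 runs the other way.

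The core subunits of the N module bind NADH, flavin and the first iron-sulfur clusters. Ndufv1 (gene ID 17995, chromosome 19 from 4007499 to 4012755, mm10), which holds the flavin and the NADH site, stood at 506, 329 and 531 CPM in KO 1, 2 and 3, against 999.8, 1041 and 629.8 CPM in control 1, 2 and 3. The groups did not overlap, and the fold change was 0.512 (log2 -0.97, SE 0.27, edgeR adjusted p = 0.0906). Ndufs1 (chromosome 1 from 63143592 to 63176822), the largest subunit, which carries several iron-sulfur clusters, was at 602, 383 and 591 CPM in KO 1, 2 and 3, against 1273, 1263 and 775 CPM in control 1, 2 and 3. Its groups did not overlap, with means of 525 ± 124 CPM in the libraries labelled KO and 1104 ± 285 CPM in control (SD, n = 3 libraries each; edgeR adjusted p = 0.0760).

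Ndufv2 (chromosome 17 from 66078795 to 66101559), the partner of Ndufv1, was at 313, 171 and 230.1 CPM in KO 1, 2 and 3, against 574, 672 and 276 CPM in control 1, 2 and 3. It was the core subunit whose groups overlapped, KO 1 lying above control 3, and it had the widest interval of the core subunits (log2 fold change -1.09, 95% interval -1.96 to -0.22, edgeR adjusted p = 0.125). Among the supernumerary subunits of this module, Ndufs4, which is needed for the attachment of the N module and whose loss causes Leigh-like disease in mice and people, averaged 105 ± 26.7 CPM in the libraries labelled KO and 220 ± 56.4 CPM in control (SD, n = 3 each; edgeR adjusted p = 0.0743). The 10 genes of the N module had a median log2 fold change of -0.97, from -1.09 to -0.82.

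The Q module carries the cluster that hands electrons to ubiquinone. Its core subunit Ndufs7 (chromosome 10 from 80249452 to 80256792), which binds the terminal iron-sulfur cluster N2, was at 106, 65.3 and 104 CPM in KO 1, 2 and 3, against 235, 245 and 131 CPM in control 1, 2 and 3. Every library labelled KO lay below every control. Ndufs7 had the lowest fold change of the 7 core subunits, 0.450 (log2 -1.15, SE 0.29, edgeR adjusted p = 0.0764).

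Ndufs3, a core subunit that forms part of the early assembly intermediate, was at 183, 110.1 and 171 CPM in KO 1, 2 and 3, against 365, 388 and 218 CPM in control 1, 2 and 3 (edgeR adjusted p = 0.0823). Ndufs8, a core subunit with iron-sulfur clusters, was at 128, 70.0 and 105 CPM in KO 1, 2 and 3, against 224, 248.7 and 132 CPM in control 1, 2 and 3 (edgeR adjusted p = 0.104). Neither gene's groups overlapped. Ndufa5 (chromosome 6 from 24518664 to 24527687), a small supernumerary subunit of the matrix arm, had the lowest fold change of all 36 subunits. It was at 126, 70.4 and 106 CPM in KO 1, 2 and 3, against 273, 272 and 162 CPM in control 1, 2 and 3 (log2 fold change -1.23, SE 0.28, edgeR adjusted p = 0.0659). The 6 genes of the Q module had a median of -1.03, beside -1.06 over the 7 core subunits and -0.98 over the 29 supernumerary ones.

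The membrane arm had members at both ends of the range. In its distal part, Ndufb10 was at 202, 115 and 186 CPM in KO 1, 2 and 3, against 438, 449.7 and 256 CPM in control 1, 2 and 3 (log2 fold change -1.19, edgeR adjusted p = 0.0728). Ndufab1, the mitochondrial acyl carrier protein, which also serves fatty acid synthesis and iron-sulfur cluster assembly, averaged 38.5 ± 14.0 CPM in the libraries labelled KO and 83.7 ± 19.5 CPM in control (SD, n = 3 each). The distal arm had a median of -0.99 over 11 genes and the proximal arm one of -0.97 over 9.

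By their own rows, the 3 subunits with the smallest differences were Ndufs5, Ndufc2 and Ndufa11, all of the proximal arm. Ndufs5 stands there through a row with few reads, described below. Counted with a second row at its locus it was at -0.86, further from 0 than Ndufb3 (-0.79) and Ndufb6 (-0.80) of the distal arm. Ndufc2 was at 107, 80.0 and 106 CPM in KO 1, 2 and 3, against 179, 187 and 118 CPM in control 1, 2 and 3, without overlap (log2 fold change -0.72, SE 0.21, edgeR adjusted p = 0.0984). Ndufa11, a subunit at the junction of the arm's proton pumps, was at 105, 63.6 and 85.9 CPM in KO 1, 2 and 3, against 177, 166 and 86.7 CPM in control 1, 2 and 3, so that KO 1 lay above control 3 (edgeR adjusted p = 0.176).

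The remaining subunits had log2 fold changes between these ends and edgeR adjusted p from 0.0685 (Ndufa2) to 0.126 (Ndufa6). Genes with the YY1 element lay from -1.15 (Ndufs7) to -0.99 (Ndufc1), those with the ETS element from -1.06 to -0.80 and those with the NRF-1 element from -1.05 (Ndufaf4) to -0.76 (Ndufaf5).

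**Figure D2:**
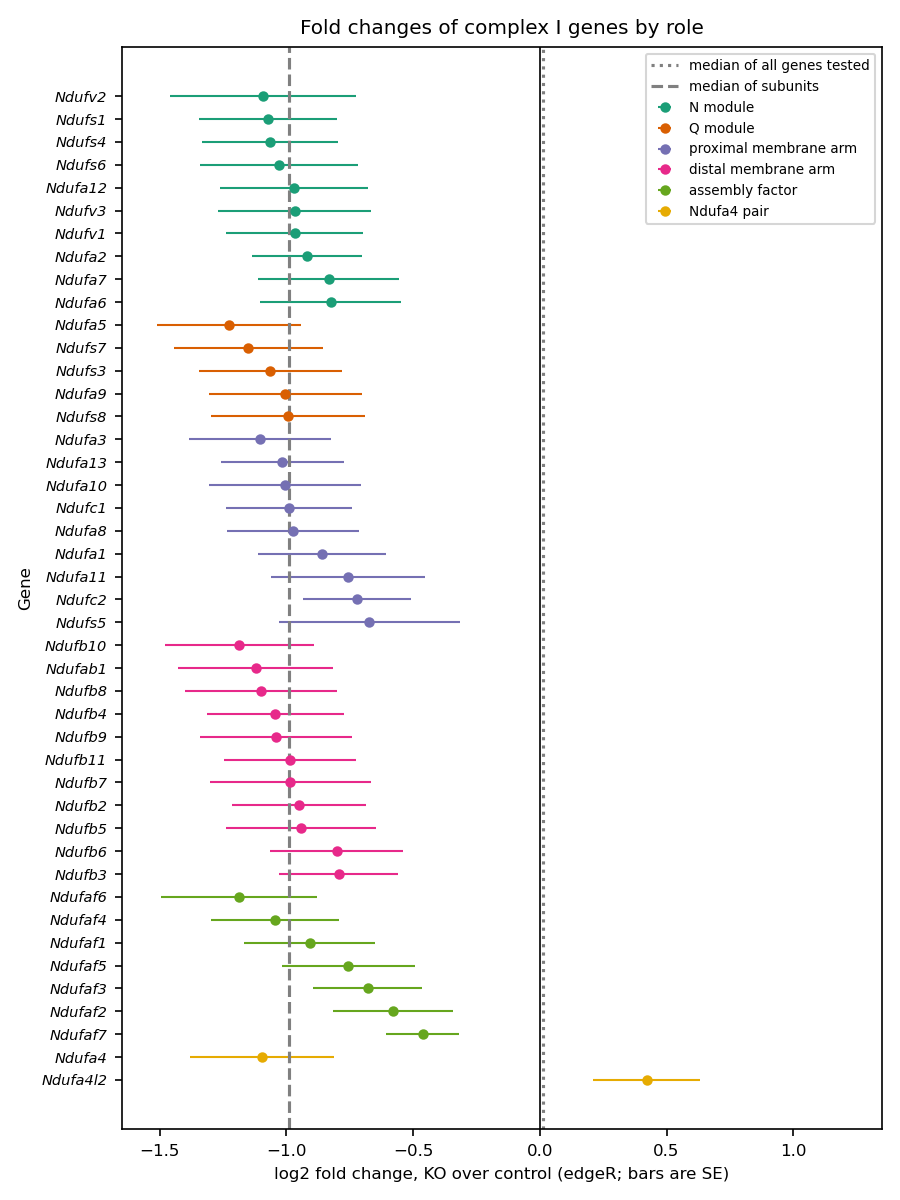
Fitted log2 fold change (KO over control, edgeR, all 6 libraries) with its SE for 44 of the 45 genes, coloured by role. Subunits lie from -1.23 (Ndufa5) to -0.67 (Ndufs5) around their median of -0.99, the assembly factors spread from -1.19 (Ndufaf6) to -0.46 (Ndufaf7), and Ndufa4l2 lies above 0 at 0.42.

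The row for Ndufs5, a subunit of the proximal arm, held few reads. Its own transcript had 138, 81 and 148 reads in KO 1, 2 and 3, against 136, 154 and 141 in control 1, 2 and 3. A second transcript, listed as BC002163, is placed by the table on the same stretch of chromosome 4 and bears the accession that RefSeq gives to Ndufs5-ps, a transcribed pseudogene on chromosome 16. That row had 2447, 2090 and 2167 reads in KO 1, 2 and 3, against 3358, 3103 and 2265 in control 1, 2 and 3. It thus held 93.6 to 96.3% of the reads at the locus, and the copy on chromosome 16 had 284 to 366 reads per library.

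Counted with that row, Ndufs5 was at 89.3, 60.8 and 84.5 CPM in KO 1, 2 and 3, against 171, 157 and 97.6 CPM in control 1, 2 and 3. Its mean level per length became 164 FPKM in the libraries labelled KO and 274 FPKM in control, where its own transcript gave 8.21 and 12.2 FPKM. The log2 fold change moved to -0.86 (SE 0.25, edgeR adjusted p = 0.0939), where its own transcript gave -0.67 (SE 0.36, edgeR adjusted p = 0.285). The range over the 36 subunits then ended at -0.72 (Ndufc2) instead of -0.67. This merged count of Ndufs5 was added after the data were seen. No source used here says how the authors divided reads between near-identical copies. Pseudogenes or close copies of Ndufa12, Ndufab1, Ndufs6, Ndufa11 and Ndufb4 are also annotated in RefSeq, and the counts of these genes are uncertain to that extent.

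Subunits also differed in abundance. Per length, in the deposited FPKM averaged over the 6 libraries, 33 of 36 subunits reached 100 FPKM, with a median of 227 FPKM. Ndufb8 and Ndufb9 were the most abundant, at 462 and 420 FPKM in the libraries labelled KO and 919 and 797 FPKM in control. Ndufs5 (by its own row), Ndufa11 and Ndufab1 were the 3 below 100 FPKM.

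Assembly factors were present at much lower levels than subunits and differed less uniformly between the genotypes. Their median over the 7 genes was 13.4, 10.4 and 13.1 FPKM in KO 1, 2 and 3, against 17.8, 18.9 and 14.3 FPKM in control 1, 2 and 3. Each of the 7 had a negative log2 fold change, with a median of -0.76, and none passed edgeR's test (smallest adjusted p = 0.0690, Ndufaf4). For every 100 subunit reads there were 2.71, 2.87 and 2.82 Ndufaf reads in KO 1, 2 and 3, against 2.44, 2.43 and 2.85 in control 1, 2 and 3. Control 3 lay within the range of the libraries labelled KO, so the balance of assembly factors to subunits did not separate the genotypes.

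Ndufaf6 and Ndufaf4 had the lowest fold changes among them. Ndufaf6, a factor of the early Q and proximal modules, was at 7.70, 4.20 and 7.12 CPM in KO 1, 2 and 3, against 16.7, 16.4 and 10.2 CPM in control 1, 2 and 3 (log2 fold change -1.19, SE 0.31, edgeR adjusted p = 0.0781). Ndufaf4, which works together with Ndufaf3 on an early intermediate, was at 59.3, 35.6 and 62.0 CPM in KO 1, 2 and 3, against 120.1, 120.6 and 83.0 CPM in control 1, 2 and 3. Neither gene's groups overlapped.

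Ndufaf3 was at 19.6, 13.8 and 17.7 CPM in KO 1, 2 and 3, against 28.7, 32.6 and 20.5 CPM in control 1, 2 and 3 (log2 fold change -0.68, SE 0.22, edgeR adjusted p = 0.111). Ndufaf1, a chaperone of the proximal membrane arm, was at 44.3, 26.6 and 43.2 CPM in KO 1, 2 and 3, against 81.4, 81.1 and 51.6 CPM in control 1, 2 and 3. Both genes had every library labelled KO below every control. Ndufaf5, an enzyme that hydroxylates Ndufs7, was at 18.2, 10.3 and 13.9 CPM in KO 1, 2 and 3, against 24.9, 28.9 and 17.7 CPM in control 1, 2 and 3, with KO 1 just above control 3.

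The smallest differences were those of Ndufaf2 and Ndufaf7. Ndufaf2, a paralogue of Ndufa12 that acts late in the joining of the N module, was at 9.08, 6.69 and 8.95 CPM in KO 1, 2 and 3, against 13.5, 14.3 and 9.17 CPM in control 1, 2 and 3. Ndufaf7, a methyltransferase of the mitochondrial matrix, was at 21.9, 19.2 and 21.3 CPM in KO 1, 2 and 3, against 32.5, 29.1 and 24.3 CPM in control 1, 2 and 3 (log2 fold change -0.46, 95% interval -0.81 to -0.12, edgeR adjusted p = 0.108). Of the complex I assembly genes without an Nduf symbol, 11 were measured and 0 passed the test. All 11 had a negative log2 fold change (median -0.57), from -0.99 for Ecsit to -0.24 for Lyrm2. RefSeq gives the symbol Ndufaf8 to a further gene, listed as 1810043H04Rik, which lay outside the selection and averaged 9.05 ± 0.166 CPM in the libraries labelled KO and 15.8 ± 4.32 CPM in control (SD, n = 3 each).

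Ndufa4 and Ndufa4l2 had fold changes of opposite sign. Ndufa4, named for complex I but now placed in cytochrome c oxidase, had the highest FPKM of all 45 genes, with means of 628 in the libraries labelled KO and 1239.7 in control. It was at 352, 215 and 347 CPM in KO 1, 2 and 3, against 758, 754 and 444 CPM in control 1, 2 and 3, and so differed like the subunits (log2 fold change -1.10, SE 0.28, edgeR adjusted p = 0.0786). Ndufa4l2 (chromosome 10 from 127514939 to 127517156), a paralogue induced by HIF-1 in hypoxia that lowers complex I activity, was at 20.7, 15.2 and 15.2 CPM in KO 1, 2 and 3, against 14.0, 14.2 and 9.94 CPM in control 1, 2 and 3. Its groups did not overlap, but the gap between KO 3 and control 2 was about 1 CPM, and it did not pass (log2 fold change 0.42, 95% interval -0.08 to 0.92, edgeR adjusted p = 0.257). Its listed locus overlaps that of Shmt2, from which its reads may not be separable.

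As a share of all subunit reads, Ndufa4l2 stood at 0.311%, 0.375% and 0.245% in KO 1, 2 and 3, against 0.107%, 0.107% and 0.131% in control 1, 2 and 3, without overlap. On this relative scale 11 of the 45 genes lay above control in all libraries labelled KO, where 59.5% of all genes tested did, and 9 lay below, where 1.15% did. The divisor is the subunits' own sum, which was lower in the libraries labelled KO. Both contrasts with all genes follow largely from that choice and are not read as an excess or a lack. Ndufa5 held 1.90%, 1.74% and 1.72% of subunit reads in KO 1, 2 and 3, against 2.10%, 2.05% and 2.14% in control 1, 2 and 3. Ndufb10 held 3.04%, 2.84% and 3.005% in KO 1, 2 and 3, against 3.36%, 3.39% and 3.37% in control 1, 2 and 3. Ndufa6, a supernumerary subunit of the LYR family, held 2.13%, 2.13% and 2.18% in KO 1, 2 and 3, against 1.90%, 1.89% and 1.89% in control 1, 2 and 3. These shifts within the enzyme were small beside the common difference, and with 3 libraries against 3 an exact test cannot go below p = 0.1.

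**Figure D3:**
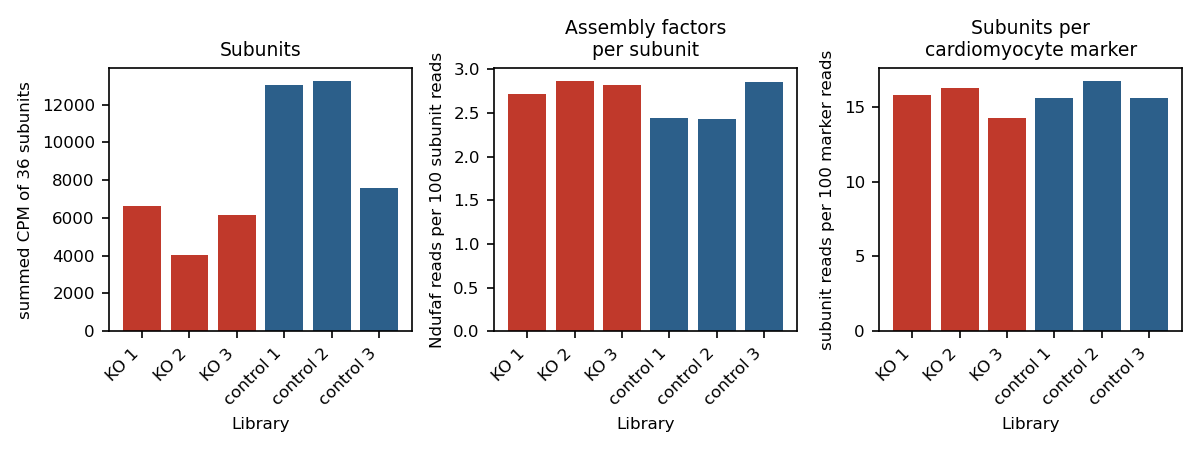
Bars give, for each library (KO left of control), the summed CPM of the 36 subunits, the Ndufaf reads per 100 subunit reads and the subunit reads per 100 reads of 10 cardiomyocyte markers. Summed subunits run from 4049 to 6631 CPM in the libraries labelled KO and from 7591 to 13274 in control, whereas subunit reads per 100 marker reads stay between 14.3 and 16.7 in all 6.

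Markers of heart muscle differed between the libraries alongside complex I. The 10 cardiomyocyte markers (such as Myh6, Myl2, Tnni3 and Mb) summed to 42051, 24891 and 43351 CPM in KO 1, 2 and 3, against 83628, 79275 and 48794 CPM in control 1, 2 and 3, and none of them was at 0. Their median log2 fold change was -1.08, from -1.52 (Tnni3) to -0.35 (Ryr2), with 0 of 10 past the test. Relative to them complex I was nearly level. There were 15.8, 16.3 and 14.3 subunit reads per 100 marker reads in KO 1, 2 and 3, against 15.6, 16.7 and 15.6 in control 1, 2 and 3, and the groups overlapped.

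Markers of other cell types, in 5 lists, were set beside these. All 8 fibroblast markers had positive log2 fold changes, from 0.12 (Dcn) to 2.84 (Postn) with a median of 1.15. Dcn and Pdgfra (0.25) differed little and overlapped between the groups. The 8 markers summed to 28657 to 39767 CPM in the libraries labelled KO and 6547 to 18025 CPM in control. No marker was at 0. Among them only Postn, a matrix protein of activated fibroblasts, passed the test, and it rose (edgeR adjusted p = 0.0338). The 6 macrophage and leukocyte markers summed to 1229 to 2063 CPM in the libraries labelled KO and 494 to 1685 CPM in control, where control 3 was the highest control. The 6 endothelial markers summed to 1051 to 1352 CPM in the libraries labelled KO and 1065 to 1283 CPM in control, with a median log2 fold change of 0.06 and 0 of 6 past the test. The 5 markers of smooth muscle and pericytes summed to 1687 to 1916 CPM in the libraries labelled KO and 1400.2 to 1811 CPM in control. Their median log2 fold change was 0.15, from -0.85 (Myh11) to 0.71 (Pdgfrb), with Rgs5 at 0.01. Only Pdgfrb, a pericyte receptor, passed the test, and it rose (edgeR adjusted p = 0.0328). The 3 erythrocyte markers summed to 10.4 to 83.2 CPM in the libraries labelled KO and 22.9 to 686 CPM in control. The summed levels of fibroblast markers did not overlap between the groups, whereas those of the other 4 lists did. The part of these cell types in the difference of complex I genes was not tested.

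The libraries were also split by their atrial transcripts. In those that held them, the subunits summed to 6631 CPM in KO 1 and to 13038 and 13274 CPM in control 1 and 2, and their median log2 fold change was -0.99. The only KO library there is KO 1, which had more Nmrk2 reads (808) than either control (308 and 270), so that fit sets no library lacking the targeted transcript against control. In it 38 of the 45 genes had an edgeR adjusted p under 0.05 in the lower direction, against 5.7% of all genes. In the libraries nearly free of atrial transcripts, the subunits summed to 4049 and 6180 CPM in KO 2 and 3. They summed to 7591 CPM in control 3, and their median log2 fold change was -0.56, from -0.95 to -0.21. Each of these fits has 1 library in a group, which is assumed to vary like the others, so their calls are not given. Both fits were added after the data were seen.

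The other respiratory complexes had closely similar medians. These were -1.04 over 4 genes of complex II, -0.97 over 9 of complex III, -1.02 over 12 of complex IV and -0.99 over 16 of ATP synthase, beside -0.99 for complex I subunits. In these lists only Cox7a1, a muscle isoform of a cytochrome oxidase subunit, and Atp5f1, a stalk subunit of ATP synthase, fell (edgeR adjusted p = 0.0494 and 0.0427). They were 1 of 12 in complex IV and 1 of 16 in ATP synthase, both near the threshold, where 1.09% of all genes fell. For every 100 reads of complex II there were 391, 388 and 411 subunit reads of complex I in KO 1, 2 and 3, against 389, 375 and 375 in control 1, 2 and 3. For every 100 reads of complex IV there were 179.9, 175 and 177 in KO 1, 2 and 3, against 174, 175 and 174 in control 1, 2 and 3. In both ratios KO 2 lay within the range of control. Per 100 reads of complex III the groups overlapped too, at 200.3 to 215 in the libraries labelled KO against 208 to 214 in control, as they did per 100 reads of ATP synthase, at 55.7 to 59.8 in the libraries labelled KO against 58.3 to 61.1 in control.

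**Figure D4:**
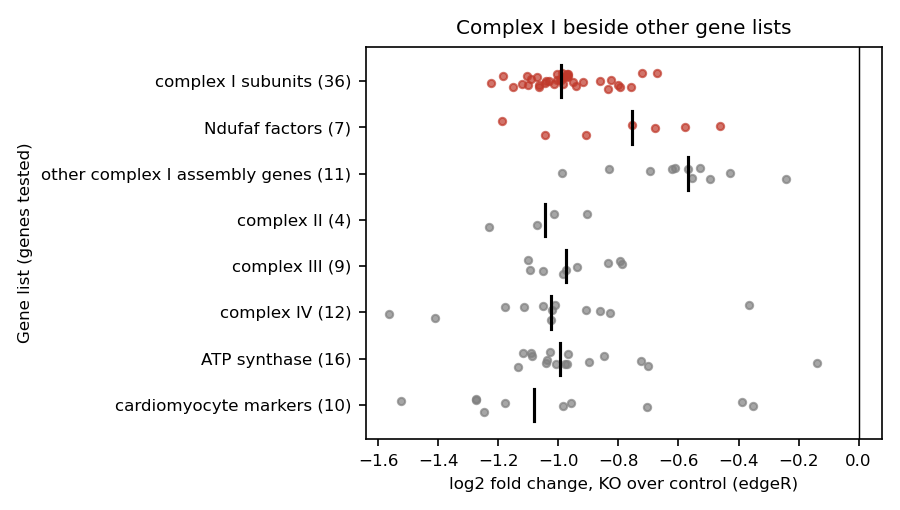
Fitted log2 fold change (KO over control, edgeR) of each gene, as a point, in complex I lists (red) and in other lists (grey), with the number of genes tested in brackets and the median as a black line. Complex I subunits (median -0.99) lie with complexes II to IV, ATP synthase and cardiomyocyte markers (-1.08), while Ndufaf factors (-0.76) and other complex I assembly genes (-0.57) lie nearer to 0.

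The transcripts of Ndufv3, an N module subunit that exists in a short and a long form, differed between the groups in their share of the gene's reads. The short transcript of 487 bases had 224, 122 and 178 FPKM in KO 1, 2 and 3, against 384, 403 and 246.5 FPKM in control 1, 2 and 3 (log2 fold change -1.08, SE 0.34). The long transcript of 1579 bases had 13.3, 11.0 and 9.83 FPKM in KO 1, 2 and 3, against 13.6, 11.0 and 9.51 FPKM in control 1, 2 and 3 (log2 fold change -0.10, SE 0.24). The long form thus lay in the same range in both groups, while the short form was lower in every library labelled KO.

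The long transcript took 16.2%, 22.5% and 15.2% of Ndufv3 reads in KO 1, 2 and 3, against 10.3%, 8.13% and 11.1% in control 1, 2 and 3. The lowest bound among the libraries labelled KO was 13.9% and the highest among controls 12.3% (95% Clopper-Pearson intervals, counting error only), so the groups did not overlap. The mean share was 17.98 ± 3.98% in the libraries labelled KO and 9.87 ± 1.55% in control (SD, n = 3 each; exact two-sided permutation p = 0.1, the smallest that 3 against 3 can give). Neither transcript passed edgeR on single transcripts (adjusted p = 0.209 for the short and 0.901 for the long), where 0.449% of 20265 transcripts did.

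**Figure D5:**
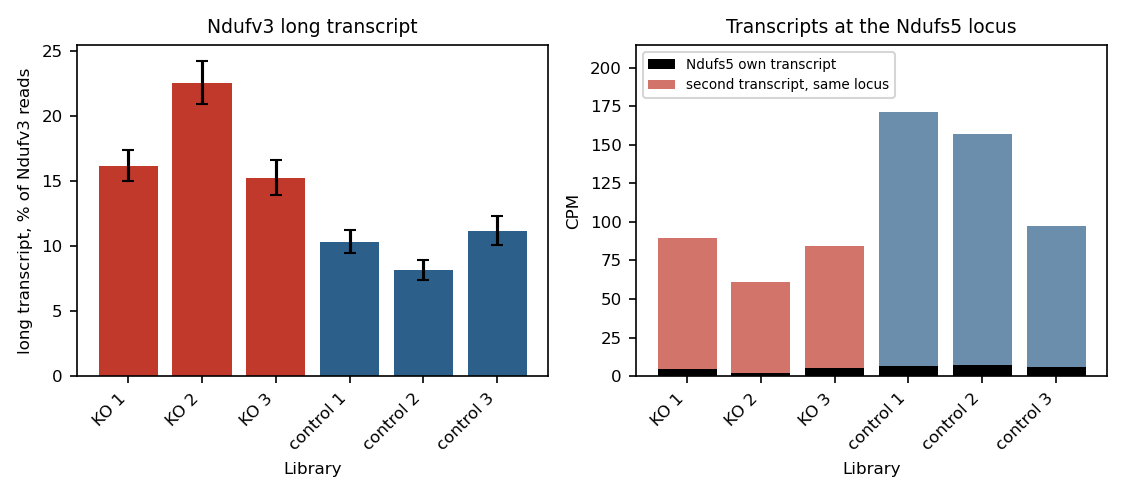
Left, the share of Ndufv3 reads on the long transcript in each library (KO left of control), with 95% Clopper-Pearson intervals for counting error. It is 15.2 to 22.5% in the libraries labelled KO and 8.13 to 11.1% in control. Right, CPM at the Ndufs5 locus, split into the gene's own transcript (black) and the second transcript listed there (coloured), which holds 93.6 to 96.3% of the reads.

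Of the 8 members with several transcripts, 4 (Ndufv3, Ndufs8, Ndufa7 and Ndufs1) had a transcript whose share did not overlap between the groups, as did 18.3% of all 4884 genes tested with several transcripts. In Ndufs8, the longest transcript (1027 bases) took 25.1%, 18.8% and 19.0% of the gene's reads in KO 1, 2 and 3, against 27.2%, 29.99% and 27.2% in control 1, 2 and 3 (exact two-sided permutation p = 0.1). In Ndufa7, a transcript of 477 bases took 2.05%, 1.82% and 2.43% of reads in KO 1, 2 and 3, against 1.11%, 1.20% and 1.18% in control 1, 2 and 3. In Ndufs1, one of 2823 bases took 31.6%, 29.4% and 28.8% of reads in KO 1, 2 and 3, against 32.3%, 34.6% and 39.8% in control 1, 2 and 3. Both differences also had an exact two-sided permutation p of 0.1. In these genes, as in Ndufv3 and Ndufs8, that value follows from the lack of overlap and adds nothing to it. In Ndufv2, by contrast, the transcript of 1637 bases took 23.3 to 29.75% of reads in 5 libraries and 0.0430% in control 2, with 6 reads of 13950 there. The summed count of Ndufv2 does not depend on that split. No source used here says how reads shared by isoforms were divided, and transcript shares are less certain than gene sums.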

How the data were processed

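Total RNA libraries had been made with a stranded kit, per the labels' protocols. Bowtie2, HISAT2 and the build mm10 are named without role or version, as listed in the submitters' processing notes. Neither the program that counted reads nor the annotation or strand setting is stated in any source used here. The authors deposited, per the file headers, read counts and FPKM values for 36780 RefSeq transcripts in 3 libraries per genotype. Columns beginning with KO were given to the knockout sample and those beginning with C to the control.

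Counts were summed per symbol and tested with edgeR 4.0.16 in R 4.3.3 (quasi-likelihood, TMM, filterByExpr, all 6 libraries, no covariate, Benjamini-Hochberg over 14466 genes, threshold 0.05), after a run on simulated data. SE values come from the F statistic. Libraries of a genotype differed beyond counting error (median chi-square over genes 3.78 to 17.3, against 0.455 for counting error alone). Alternatives were DESeq2 1.42.0, limma 3.58.1 on log2(FPKM + 1) and log2(FPKM + 0.1), other scalings and filters, the main transcript, a block for library number and leaving out libraries.

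Per-library values are given for core subunits, the ends of the range, assembly factors and the Ndufa4 pair. 1 member is not reported here by its own values, but counts, sums and medians include it. Subunits named outside these, and the transcript splits, were chosen after their values were seen. The members and lists were chosen with earlier results of these data known. Of the other complex I assembly genes listed, Coa1, Dmac1 and Dmac2 were not analysed here. Intervals on shares cover counting error only. Loci of Ndufa1, Ndufa2, Ndufa10, Ndufa13, Ndufa4l2, Ndufb11, Ndufs1, Ndufs5 and Ndufs7 overlap another listed gene, and reads there may not be separable.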

Additional observations from a re-analysis of the deposited data

How the results depend on the processing

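Past the test were 0 of 45 genes by edgeR on all libraries, 40 by DESeq2, 4 of 44 with a filter at a mean of 10 CPM, and 4 each by limma on log2(FPKM + 1) and on log2(FPKM + 0.1). Those 4 were Ndufa13, Ndufa2, Ndufa5 and Ndufaf4 in all 3 cases. Of all genes, 1.09%, 9.19%, 3.07%, 2.32% and 2.12% fell in these fits, in that order. Leaving out single libraries gave 0 to 43, the 43 without control 3. Why the edgeR calls depend on that library was not tested. With libraries that hold atrial transcripts alone, 38 passed, but the whole KO side of that fit is KO 1, whose Nmrk2 reads go against its label. In the others alone the subunit median was -0.56, and the cause was not tested. RLE scaling, library totals, no filter, the main transcript and the merged Ndufs5 count left 0 past the test. Few genes of any kind fell there, 1.04%, 1.52%, 0.582%, 0.244% and 1.09% in that order. Library totals moved the median of all genes to 0.11 and that of subunits to -0.87. Without single libraries the subunit median ran from -1.21 to -0.80 and that of Ndufaf genes from -0.98 to -0.57. Every gene kept its direction in each alternative that tested it, Ndufs5 being untested with the filter at 10 CPM. With the library number as a block 0 of 45 passed, with medians of -0.98 and -0.76, and 6 of all genes did, against 535 without it. Whether the numbers pair the libraries is not known. Deviations from the group means correlated at 0.29, -0.30 and -0.34 between same-numbered libraries 1, 2 and 3, and KO 2 correlated best with control 3. With 3 libraries per group such deviations sum to 0, so these values cannot exclude a pairing.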
